A study of Homo sapiens with 10 samples.

Results

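The transcripts of 10 circadian clock genes were followed in MDA-MB-231 cells during dasatinib treatment. They were the period genes *PER1*, *PER2* and *PER3*, the repressor genes *CIART*, *BHLHE40* and *BHLHE41*, the REV-ERB genes *NR1D1* and *NR1D2*, and the PAR bZIP genes *DBP* and *TEF*. Members were the rows of the deposited tables that carry these 10 symbols, and all 10 were found among 36687 symbols. Of the 10, 9 passed the filter on low counts and were tested among 15727 genes; *CIART* did not pass. MDA-MB-231 is an established line of triple-negative breast cancer cells, labeled as wild type, and the drug dasatinib inhibits kinases of the SRC family, ABL and others. The 5 groups, with 2 biological replicates each and 10 libraries in all, were cells titled sham (0 h) and cells sampled 6, 12, 24, and 48 h into dasatinib treatment. The treatment field of the sham samples names the drug as well, and they were used here as the untreated group because of their titles. A single 0 h group is the only untreated one, so drug and time in culture cannot be told apart, and the results concern 1 cell line.

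The circadian clock is a feedback loop of transcription that runs in most human cells. The activators BMAL1 and CLOCK, or NPAS2 in place of CLOCK, bind E-box sequences and switch on the genes of their own repressors, the PER and CRY proteins, and of the REV-ERB receptors. REV-ERBs in turn repress *BMAL1* transcription, and the PAR bZIP factors DBP and TEF activate genes that carry a D-box. BHLHE40 and BHLHE41, also called DEC1 and DEC2, compete for E-boxes and are also known to be induced in hypoxia. In cultured cells that have not been synchronized, individual clocks run out of phase, so RNA from a whole dish averages over them. Whether these cells were synchronized, and the hour of day at sampling, are not given in the sources used here. Clock phase, drug and time in culture therefore cannot be told apart.

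At 48 h the pair *BHLHE40* and *BHLHE41*, the REV-ERB gene *NR1D1*, the period gene *PER3* and the PAR bZIP gene *TEF* were higher than at 0 h, whereas *PER1*, *PER2* and *NR1D2* did not pass the test at any time. The largest change among the members was that of *BHLHE41*, 7.78-fold at 48 h. None of the 9 tested members passed the test as lower against 0 h. At 6 h 0 of 9 passed, against 2.73% of all genes tested, 1.24% as higher and 1.49% as lower (edgeR quasi-likelihood test on raw counts, adjusted p under 0.05). At 6 h 4 of 9 had an unadjusted p under 0.05, DESeq2 on all libraries called 1 (*BHLHE40*), and limma called 0. At 12 h 5 of 9 were higher, against 7.15% of all genes called, 3.93% as higher and 3.22% as lower. At 24 h 5 of 9 were higher, against 20% of all genes called, 9.73% as higher and 10.2% as lower. At 48 h 5 of 9 were higher, against 32.3% of all genes called, 16% as higher and 16.3% as lower. The 4 comparisons share the 0 h libraries. The median log2 fold change of the 9 members was 0.32, 0.68, 0.66 and 0.92 at 6, 12, 24, and 48 h, and that of all genes tested lay between 0.00 and 0.02.

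The separation of the libraries gave a second view that uses no model. At 6 h both libraries of 5 of the 9 tested members lay above both 0 h libraries and those of 2 below, against 29.3% above and 28.8% below over all genes tested. At 12 h 7 of 9 lay above and 0 below, against 22% and 23.3% of all genes. At 24 h 7 lay above and 0 below, against 35.4% and 34%. At 48 h 8 lay above and 0 below, against 37.7% and 37.3%. At 24 h against 6 h 5 lay above and 0 below, against 35.4% and 34.6% of all genes, and at 48 h against 6 h 6 and 0, against 37.9% and 38.1%. At 48 h against 24 h 6 lay above and 1 (*DBP*) below, against 29.2% and 30.7%. *CIART*, not among the 9, lay above at 6 and 48 h against 0 h and at 48 h against 6 and 24 h, on counts of 14 or fewer. Levels are CPM, counts scaled to library size by TMM, unless TPM is named, which also takes account of transcript length. In bulk RNA, fewer cells that express a gene and less of its RNA per cell cannot be told apart.

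**Figure D1:**
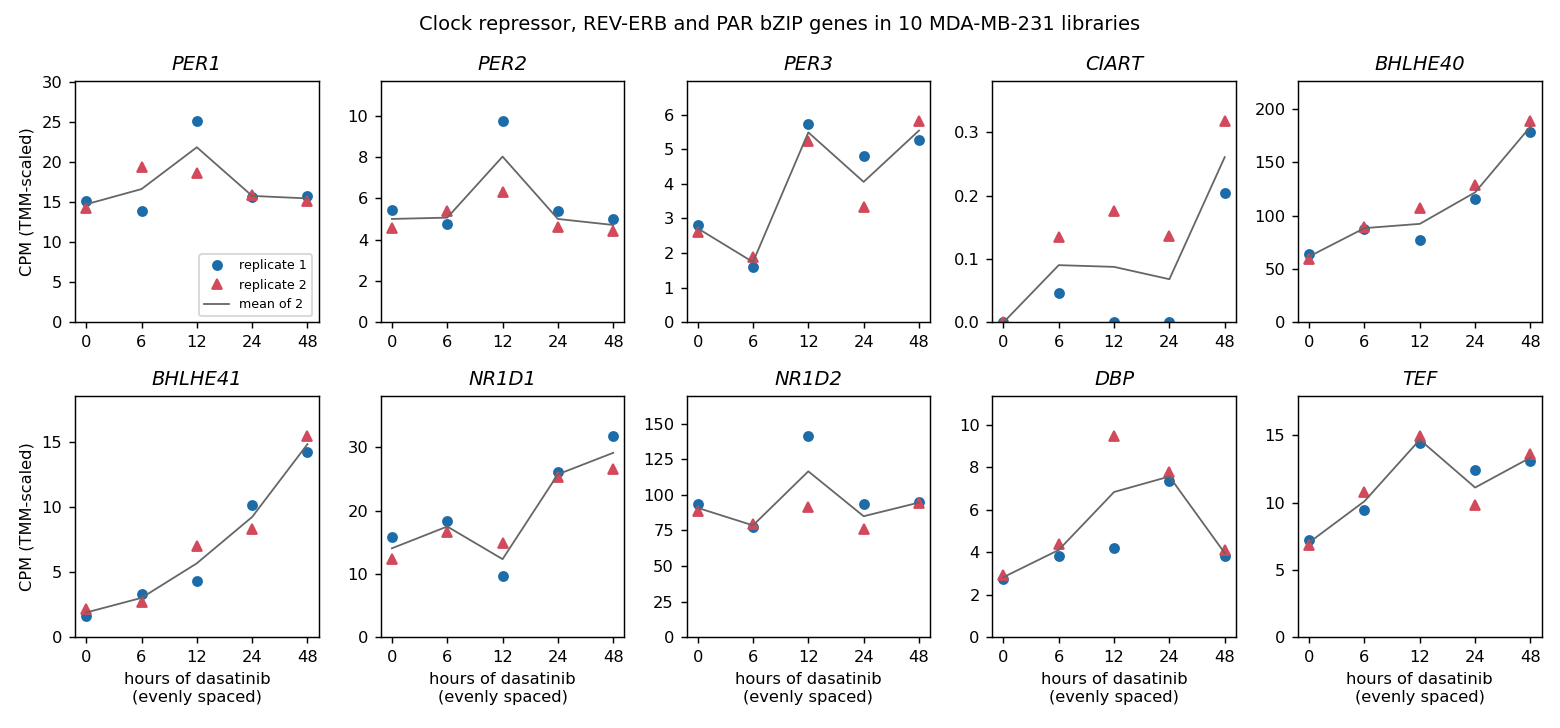
CPM of the 10 members in each library (y axis, linear and starting at 0, with its own range for each gene) against hours of dasatinib (x axis, times evenly spaced). Each point is 1 replicate, and lines connect the means of the 2. *BHLHE40* and *BHLHE41* have their highest values at 48 h, the *PER1*, *PER2* and *NR1D2* points of 12 h replicate 1 stand above all their others, and the *DBP* mean is highest at 24 h.

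Total counts ranged from 40942913 to 49133774 per library. Libraries were paired-end, and between 71.5% and 76.6% of the genes with 1 to 20 counts had an even count in a library, so the mates of a pair appear to be counted one by one and 2 counts often stand for 1 fragment. Replicate 1 at 12 h stood apart. Its highest correlation of log2 CPM with another library was 0.934, against 0.971 to 0.979 for the other 9, mitochondrial mRNAs made up 7.94% of its counts against 5.42% in 12 h replicate 2, and ribosomal protein mRNAs 4.21% against 7.13%. The same shares differed at 48 h, with 7.24% and 6.73% mitochondrial mRNAs, against 5.72% and 5.07% at 0 h, and 5.40% and 5.22% ribosomal protein mRNAs, against 6.64% and 6.65% at 0 h. *PER1*, *PER2* and *NR1D2* were higher in 12 h replicate 1 than in 12 h replicate 2, and *BHLHE40*, *BHLHE41*, *NR1D1* and *DBP* lower. All 5 fixed markers of the line (*VIM*, *CD44*, *AXL*, *SPARC*, *EPAS1*) were expressed; at 48 h 3 of them (*VIM*, *CD44*, *AXL*) were lower and 2 higher than at 0 h. Of the luminal and epithelial markers *ESR1* stayed at or below 0.523 CPM, *CDH1* at or below 0.239 CPM, *KRT5* at or below 0.0398 CPM, and *PGR* had 0 counts in all 10 libraries. *EPCAM* (3.44 to 7.01 CPM) and *FOXA1* (10.7 to 17.7 CPM) were expressed, and *FOXA1* was higher at 48 h (17.2 CPM, against 11.6 CPM at 0 h, adjusted p = 0.0177 from edgeR). *CD3E* had 0 counts, *PTPRC* had at most 0.363 CPM and *CDH5* at most 1.27 CPM, and the endothelial gene *PECAM1* was higher at 48 h (7.41 CPM, against 1.45 CPM at 0 h), as was the monocyte gene *CD14* (1.77 CPM, against 0.312 CPM at 0 h). The part of these values in the results below was not tested.

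The promoters of 5 members are shown because they hold the letters of an E-box or a D-box and because these genes differed in their course. *BHLHE40*, *BHLHE41* and *TEF* were higher at 3 of 4 times, *PER3* at 2, and *PER1* at none. Of the called members, *NR1D1* and *DBP*, each higher at 2 times, are not shown. Their windows held neither CACGTG nor TTATGTAA. Each line gives the 250 bases before the transcription start from RefSeq (GRCh38.p14), 5′ to 3′ on the strand of the gene, with the E-box CACGTG or the D-box TTATGTAA in capitals.
BHLHE40, chr3:4979187-4979436 (plus strand): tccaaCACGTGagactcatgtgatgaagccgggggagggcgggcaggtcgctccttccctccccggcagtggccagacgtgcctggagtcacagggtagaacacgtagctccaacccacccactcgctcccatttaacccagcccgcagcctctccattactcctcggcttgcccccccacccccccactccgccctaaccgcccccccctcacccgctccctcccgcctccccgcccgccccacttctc
BHLHE41, chr12:26125038-26125287 (minus strand): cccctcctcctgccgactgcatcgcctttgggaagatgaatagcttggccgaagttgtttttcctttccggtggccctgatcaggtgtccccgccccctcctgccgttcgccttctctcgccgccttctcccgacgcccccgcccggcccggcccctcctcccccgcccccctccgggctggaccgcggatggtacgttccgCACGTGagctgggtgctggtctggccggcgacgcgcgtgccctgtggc
TEF, chr22:41367205-41367454 (plus strand): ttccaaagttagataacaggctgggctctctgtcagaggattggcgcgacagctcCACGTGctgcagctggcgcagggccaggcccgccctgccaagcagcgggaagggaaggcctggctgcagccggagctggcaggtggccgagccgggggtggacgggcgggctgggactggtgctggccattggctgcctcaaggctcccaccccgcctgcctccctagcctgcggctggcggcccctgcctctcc
PER3, chr1:7784041-7784290 (plus strand): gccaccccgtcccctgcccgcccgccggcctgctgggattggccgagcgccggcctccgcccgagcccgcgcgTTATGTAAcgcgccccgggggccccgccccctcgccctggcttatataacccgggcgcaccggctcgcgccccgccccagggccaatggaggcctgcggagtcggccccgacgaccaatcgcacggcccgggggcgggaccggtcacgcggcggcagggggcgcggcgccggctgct
PER1, chr17:8152405-8152654 (minus strand): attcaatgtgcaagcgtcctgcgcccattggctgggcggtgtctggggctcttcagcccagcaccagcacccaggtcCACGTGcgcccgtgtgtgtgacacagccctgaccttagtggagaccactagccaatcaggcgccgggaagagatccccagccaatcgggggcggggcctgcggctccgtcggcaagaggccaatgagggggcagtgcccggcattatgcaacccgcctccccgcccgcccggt

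Windows of 250 bases before to 50 bases after a start were searched on both strands, in 13 windows for the 10 members and 35116 in all. The E-box letters CACGTG were present in at least 1 window of 6 of 10 members (*PER1*, *CIART*, *BHLHE40*, *BHLHE41*, *NR1D2*, *TEF*) and, counting the first window of each alone, for 5 of 10, against 7.26% of all windows. The related CACGTT was found for *PER2* and *NR1D1*, and in 5.34% of all windows. The D-box TTATGTAA was found for *PER3* and, in its second window only, *NR1D2*, so in 1 of 10 first windows, against 0.886% of all windows, and its variant TTACGTAA for *PER2* and in 0.125%. The windows of *DBP* and *PER3* held no E-box of this spelling. ACGTG, the core of the hypoxia response element, was found for 8 of 10 members in any window and for 7 of 10 in the first, against 21.4% of all windows; it is a part of the E-box, so the matches of the 2 overlap. The same E-box letters stand in the promoters of *BHLHE41*, which was higher at 3 times, and of *PER1*, which was not called. A match is only a run of letters, and no binding was measured.

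**Figure D2:**
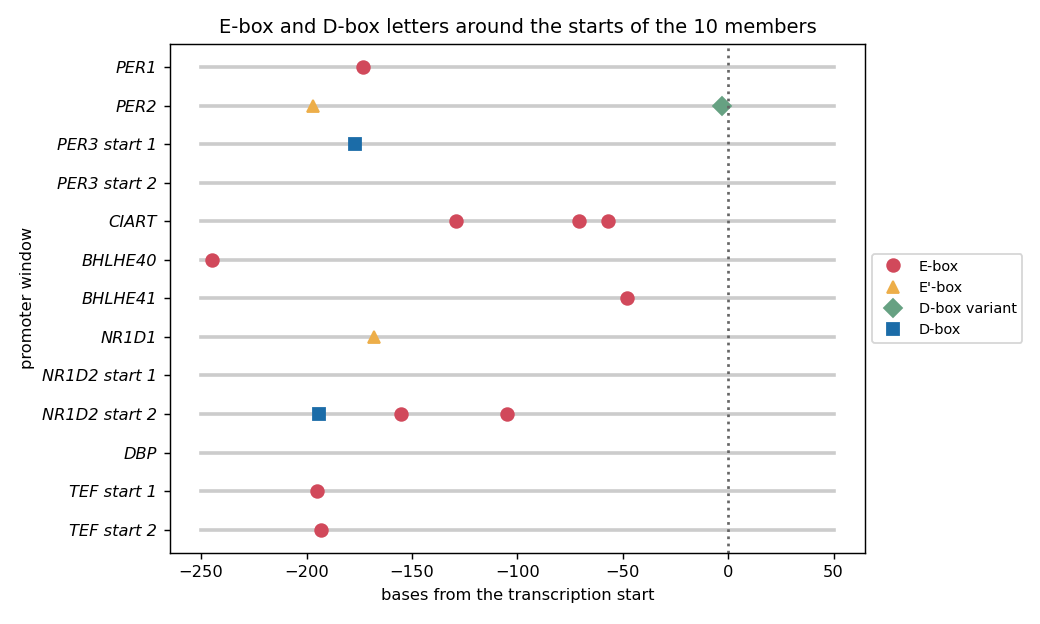
Position of E-box, E′-box (CACGTT), D-box and D-box variant letters in the 13 windows of the 10 members (rows); the x axis is distance in bases from the transcription start (dotted line), upstream to the left. E-boxes lie upstream of *PER1*, *CIART*, *BHLHE40*, *BHLHE41*, *TEF* and the 2nd *NR1D2* start, and a D-box upstream of *PER3* and the 2nd *NR1D2* start.

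*BHLHE40* (chr3:4979437-4985323, plus strand, GRCh38) encodes a basic helix-loop-helix repressor that binds E-boxes. It had 64.1 and 59.5 CPM at 0 h, 87.5 and 89.2 after 6 h, 77.6 and 107 after 12 h, 115 and 129 after 24 h, and 179 and 189 after 48 h. Every treated library was above both 0 h libraries, and both 48 h libraries were above all others. Its log2 fold changes against 0 h were 0.58 at 12 h (SE, standard error, 0.148, edgeR adjusted p = 0.0444), 0.98 at 24 h (SE 0.149, adjusted p = 0.00156) and 1.57 at 48 h (SE 0.150, adjusted p = 4.87e-05). The calls at 24 and 48 h were kept with each of the 10 libraries left out. The call at 12 h was kept in 2 of these 10 fits, and the log2 fold change was 0.80 without 12 h replicate 1 and 0.32 without 12 h replicate 2. At 6 h the log2 fold change of 0.52 did not pass (adjusted p = 0.111 from edgeR); DESeq2 on all libraries gave an adjusted p of 0.0312.

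*BHLHE41* (chr12:26120030-26125037, minus strand) encodes the closest paralog of BHLHE40, known from human families in which a variant of it shortens sleep. Its CPM was 1.65 and 2.16 at 0 h, 3.32 and 2.73 after 6 h, 4.33 and 7.03 after 12 h, 10.2 and 8.32 after 24 h, and 14.2 and 15.4 after 48 h. The 2 libraries of each time lay above both libraries of the time before, at each of the 4 steps. The log2 fold change against 0 h was 1.58 at 12 h (SE 0.274, edgeR adjusted p = 0.00932), 2.28 at 24 h (SE 0.276, adjusted p = 0.000465) and 2.96 at 48 h (SE 0.280, adjusted p = 4.48e-05). The calls at 24 and 48 h were kept with each library left out, and that at 12 h was lost without either 0 h library, with adjusted p of 0.123 without replicate 1 and 0.0609 without replicate 2. Reads of *BHLHE41* can be shared with *SSPN*, which lies on the opposite strand and has 162 exon bases in common with it, 4.20% of the exon bases of *BHLHE41*. *SSPN* rose as well, to 6.05 CPM at 48 h against 0.540 CPM at 0 h (log2 fold change 3.48, adjusted p = 4.09e-05 from edgeR). *BHLHE40* shares 451 exon bases, 12.8% of its own, with the antisense *BHLHE40-AS1*, which had at most 86 counts in a library. The library kit does not mark strand and the strand setting of the counting is not stated, so such reads cannot be told apart.

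Both repressors were higher at 48 h than at 6 h. At 24 h against 6 h 2 of 9 members were called, both higher, against 18.6% of all genes called, 9% as higher and 9.65% as lower. *BHLHE41* was one of them, with a log2 fold change of 1.61 (adjusted p = 0.00258 from edgeR). At 48 h against 6 h 4 of 9 were called, all higher, against 33.2% of all genes, 16.2% as higher and 17% as lower, among them *BHLHE40* (1.05, adjusted p = 0.000447) and *BHLHE41* (2.29, adjusted p = 0.000150). At 48 h against 24 h 0 of 9 were called by edgeR, against 3.18% of all genes, 1.89% as higher and 1.28% as lower, with 3 of 9 at an unadjusted p under 0.05 and, called by other tools, 1 of 9 by DESeq2 on all libraries and 0 by limma. The nearest to the threshold was *BHLHE40*, with a log2 fold change of 0.59 (adjusted p = 0.0653 from edgeR).

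**Figure D3:**
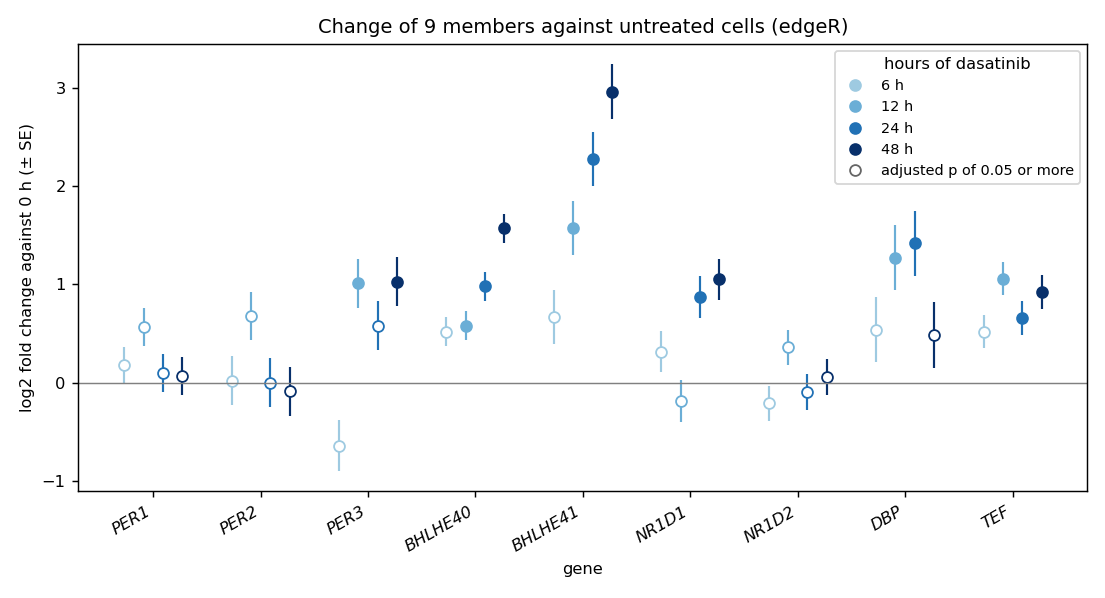
Log2 fold change against 0 h (y axis, edgeR, ± standard error) of the 9 tested members (x axis) after 6, 12, 24, and 48 h of dasatinib (light to dark). Filled points have an adjusted p under 0.05. The *BHLHE41* points reach 2.96 at 48 h, and all points of *PER1*, *PER2* and *NR1D2* are open.

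The REV-ERB genes encode heme-binding nuclear receptors that repress *BMAL1*, and both genes are given here side by side. *NR1D1* (chr17:40092793-40100589, minus strand) had 15.8 and 12.3 CPM at 0 h, 18.3 and 16.7 after 6 h, 9.73 and 15.0 after 12 h, 26.1 and 25.4 after 24 h, and 31.8 and 26.5 after 48 h. The 4 libraries of 24 and 48 h were above all 6 of the earlier times. The log2 fold change was 0.87 at 24 h (SE 0.210, edgeR adjusted p = 0.0155) and 1.05 at 48 h (SE 0.211, adjusted p = 0.00375). It was also higher at 48 h than at 6 h (log2 fold change 0.74, adjusted p = 0.0213). The 48 h call was kept in 9 of the 10 fits with a library left out and stood at an adjusted p of 0.0528 without 0 h replicate 2; the 24 h call was kept in 7 of 10, and lost without 0 h replicate 2 (log2 fold change 0.70, adjusted p = 0.157) or without either 24 h library. *NR1D1* shares 473 exon bases, 18.0% of its own, with *THRA*, a thyroid hormone receptor gene on the opposite strand. *THRA* did not pass at any time, with log2 fold changes of 0.41, 0.53, 0.53 and 0.37 at 6, 12, 24, and 48 h.

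*NR1D2* (chr3:23945286-23980617, plus strand) was, by TPM, one of the 2 most abundant members. It had 93.2 and 88.5 CPM at 0 h, 77.8 and 79.4 after 6 h, 141 and 91.8 after 12 h, 93.7 and 76.3 after 24 h, and 94.7 and 94.5 after 48 h. Apart from 12 h replicate 1 the libraries lay between 76.3 and 94.7 CPM. The log2 fold change at 48 h was 0.06, with an interval of −0.30 to 0.42 (2 standard errors to each side), so that a change as large as that of *NR1D1* lies outside it. The difference between the 2 genes was not tested.

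*PER1* (chr17:8140472-8156506, minus strand) encodes a period repressor that is also an immediate target of CREB and of glucocorticoids. It had 15.2 and 14.3 CPM at 0 h, 13.9 and 19.4 after 6 h, 25.1 and 18.6 after 12 h, 15.6 and 16.0 after 24 h, and 15.7 and 15.2 after 48 h. *PER2* (chr2:238244044-238290102, minus strand), the period gene best known for an inherited advance of sleep phase, had 5.44 and 4.56 CPM at 0 h, 4.74 and 5.39 after 6 h, 9.73 and 6.31 after 12 h, 5.39 and 4.61 after 24 h, and 5.02 and 4.40 after 48 h. For both genes the highest library was 12 h replicate 1. At 12 h the log2 fold change was 0.57 for *PER1* (adjusted p = 0.107 from edgeR) and 0.68 for *PER2* (adjusted p = 0.128). Without 12 h replicate 2 both passed, together with *NR1D2*, at 0.76, 0.95 and 0.63 for *PER1*, *PER2* and *NR1D2*. Without 12 h replicate 1 the values of these 3 genes were 0.34, 0.34 and 0.02, and none passed. With no filter on low counts *PER1* passed at 12 h (adjusted p = 0.0442 from edgeR). At 48 h the intervals were −0.32 to 0.46 for *PER1* and −0.58 to 0.41 for *PER2*.

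*PER3* (chr1:7784291-7845177, plus strand), a period gene that is not required for the core oscillation in mice, changed in another way. Its CPM was 2.82 and 2.62 at 0 h, 1.602 and 1.880 after 6 h, 5.73 and 5.24 after 12 h, 4.79 and 3.32 after 24 h, and 5.27 and 5.81 after 48 h. Both 6 h libraries were the lowest of the 10, and all 6 libraries from 12 h on were above both 0 h libraries. At 6 h the log2 fold change of −0.64 did not pass (adjusted p = 0.263 from edgeR). *PER3* was higher at 12 h (log2 fold change 1.01, SE 0.249, adjusted p = 0.0387) and at 48 h (1.03, SE 0.249, adjusted p = 0.0103), and the 24 h value of 0.58 did not pass (adjusted p = 0.136). Against 6 h it was higher at 24 h (1.22, adjusted p = 0.00860) and at 48 h (1.67, adjusted p = 0.000769). The 48 h call against 0 h was kept in 7 of 10 fits with a library left out, and lost without 0 h replicate 1 (adjusted p = 0.0558), 0 h replicate 2 (0.0776) or 48 h replicate 2 (0.0711). The 12 h call was kept in 2 of 10, and the call at 48 h against 6 h in 10 of 10. The counts behind these values are low, between 69 and 258 per library. *UTS2*, which shares 868 exon bases with *PER3* on the opposite strand, had 0 counts.

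The PAR bZIP factors DBP and TEF bind D-boxes and are known as clock outputs that drive detoxification genes in mouse liver and kidney. *TEF* (chr22:41367333-41399326, plus strand) had 7.26 and 6.84 CPM at 0 h, 9.43 and 10.8 after 6 h, 14.4 and 14.9 after 12 h, 12.4 and 9.82 after 24 h, and 13.1 and 13.6 after 48 h. Every treated library was above both 0 h libraries, and the replicates at 12 h differed little. The log2 fold change was 1.06 at 12 h (SE 0.170, edgeR adjusted p = 0.00643), 0.66 at 24 h (SE 0.169, adjusted p = 0.0207) and 0.92 at 48 h (SE 0.169, adjusted p = 0.00226). The call at 48 h was kept with each library left out, that at 12 h in 8 of 10 (lost without either 0 h library) and that at 24 h in 7 of 10 (lost without either 0 h library or 24 h replicate 1). At 6 h the value was 0.52 (adjusted p = 0.163).

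*DBP* (chr19:48630030-48637379, minus strand), one of the most strongly cycling genes in mammalian tissues, was highest in the middle of the course. It had 2.72 and 2.94 CPM at 0 h, 3.83 and 4.39 after 6 h, 4.21 and 9.47 after 12 h, 7.36 and 7.77 after 24 h, and 3.82 and 4.10 after 48 h. Both 24 h libraries were above all libraries of 0, 6, and 48 h. *DBP* was higher at 12 h (log2 fold change 1.27, SE 0.332, adjusted p = 0.0473 from edgeR) and at 24 h (1.42, SE 0.332, adjusted p = 0.0134), and at 48 h the value of 0.49 did not pass (adjusted p = 0.298). The 12 h call was kept in 1 of 10 fits with a library left out and in 4 of 9 other alternatives. The 2 libraries at 12 h differed by more than 2-fold; without 12 h replicate 2 the log2 fold change was 0.57 (adjusted p = 0.0906) and without 12 h replicate 1 it was 1.75 (adjusted p = 7.31e-06). The 24 h call was lost without either 0 h or either 24 h library, with adjusted p up to 0.107. At 48 h against 24 h the log2 fold change was −0.93, which did not pass (adjusted p = 0.181) although both 48 h libraries were below both 24 h libraries. *DBP* shares 661 exon bases, 10.2% of its own, with *SPHK2* on the opposite strand; *SPHK2*, a sphingosine kinase gene, had log2 fold changes of 0.06 at 24 h and −0.44 at 48 h, the second of them past the test (adjusted p = 0.0412).

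*CIART* (chr1:150282543-150287093, plus strand) encodes a repressor that binds BMAL1 and CLOCK. Its raw counts were 0 in both 0 h libraries, 2 and 6 in those of 6 h, 0 and 8 in those of 12 h, 0 and 6 in those of 24 h, and 10 and 14 in those of 48 h. Both 48 h libraries were above all others. *CIART* had too few counts for the filter, and in the fit made without one it was not called at any time (adjusted p = 0.104 at 48 h against 0 h, edgeR). With mates counted one by one, 3 read pairs correspond to 6 counts, so a count of 0 allows up to 0.143 and 0.138 CPM in the 0 h libraries (counting error only). The 48 h mean of 0.261 CPM was 1.86 times the mean of these 2 limits. This is no lower bound, because the counting error of the 48 h counts was left out. The means at 6, 12, and 24 h lay under the mean of the 2 limits.

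On the length-scaled TPM values some members changed places in the order of levels. At 48 h *BHLHE40* had 188 ± 12.6 TPM (SD, n = 2), *NR1D2* 58.7 ± 1.61, *NR1D1* 39.8 ± 3.94, *BHLHE41* 13.8 ± 1.21, *TEF* 10.2 ± 0.596 and *PER1* 7.95 ± 0.0371. *PER2* (2.46 ± 0.160 TPM), *PER3* (2.46 ± 0.239) and *DBP* (2.20 ± 0.175) followed at 48 h; the libraries of *PER3* overlapped those of both others, whereas both *PER2* libraries were above both *DBP* libraries, and *CIART* was last with 0.331 ± 0.111 TPM. At 0 h the order was *BHLHE40* (60.0 ± 2.502 TPM, SD, n = 2), *NR1D2* (53.6 ± 1.39), *NR1D1* (18.3 ± 2.96), *PER1* (7.20 ± 0.221), *TEF* (5.12 ± 0.161), *PER2* (2.49 ± 0.282), *BHLHE41* (1.69 ± 0.338), *DBP* (1.49 ± 0.0963) and *PER3* (1.15 ± 0.0478), with *CIART* at 0. Of the neighbors at 0 h, *BHLHE41* and *DBP* had overlapping libraries. *BHLHE41* stood above *TEF*, *PER1* and *PER2* at 48 h, and below them at 0 h.

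Of the 4 clock activators tested, 1 was higher at each time and 1 was lower at 24 and 48 h. *NPAS2*, the paralog of *CLOCK*, was the higher one, with 62.8 to 103 CPM in the 8 treated libraries, against 36.4 to 41.7 CPM at 0 h. Its log2 fold change was 0.70, 1.11, 1.34 and 1.38 at 6, 12, 24, and 48 h, each past the test (adjusted p = 0.0186 at 6 h and 4.03e-05 at 48 h from edgeR). *BMAL2*, the paralog of *BMAL1*, was lower at 24 h (−0.89) and at 48 h (−0.84). *BMAL1* itself, the gene that REV-ERBs repress, did not pass, with log2 fold changes of 0.34 (24 h) and 0.24 (48 h), and neither did *CLOCK* (−0.04 at 48 h).

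Of the 2 cryptochrome genes, *CRY1*, a repressor partner of the PER proteins, was lower at all 4 times. It had 37.9 to 38.4 CPM at 6 h and 33.5 to 36.6 CPM at 48 h, against 67.4 to 70.3 CPM at 0 h, and its log2 fold change was −0.85, −0.76, −0.73 and −0.98 at 6, 12, 24, and 48 h (adjusted p from 0.0136 to 0.000590, edgeR). *CRY2* did not pass (0.49 at 48 h). *NFIL3*, a D-box repressor, stood at −0.09 (log2 fold change, 48 h) and was not called at 6, 12, 24, or 48 h, and *HLF*, the third PAR bZIP gene, had at most 4 counts in a library. Of 17 kinases, ligases and partners of PER and CRY, 5 were lower at 48 h and none was higher, with a median log2 fold change of −0.21 over the list. They were *TIMELESS* (adjusted p = 0.000185 from edgeR), *USP7* (−0.45), *SFPQ* (−0.44), *PPP1CC* (−0.48) and *PPP1CA* (−0.56), and the casein kinase genes *CSNK1D* and *CSNK1E*, whose products phosphorylate PER, did not pass.

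**Figure D4:**
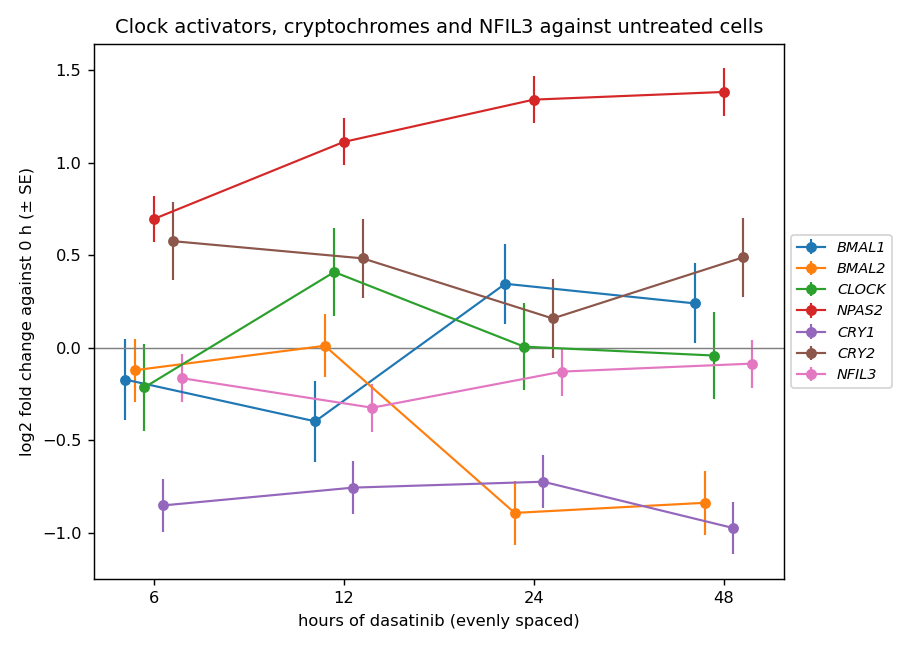
Log2 fold change against 0 h (y axis, edgeR, ± standard error) of the clock activators *BMAL1*, *BMAL2*, *CLOCK* and *NPAS2*, the cryptochromes *CRY1* and *CRY2*, and *NFIL3* at 6, 12, 24, and 48 h of dasatinib (x axis, evenly spaced; lines join the times of a gene). *NPAS2* is above 0 and *CRY1* below 0 at all 4 times.

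Among 9 other clock-linked outputs, 5 were higher and 2 lower at 48 h. *KLF9*, a Krüppel-like factor, had a log2 fold change of 1.92 (adjusted p = 7.31e-05 from edgeR), *NAMPT*, the rate-limiting enzyme of NAD salvage, 1.31 (adjusted p = 5.67e-05) and *PPARA*, a receptor for fatty acids, 1.52 (adjusted p = 0.000567). *WEE1*, the kinase that restrains CDK1, was lower (−0.76, adjusted p = 0.00310), as was *NOCT*, a phosphatase of NADPH (−0.74, adjusted p = 0.0261). The median over these 9 was 0.07, 0.23, 0.42 and 0.58 at 6, 12, 24, and 48 h.

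Genes that respond to signals known to reach clock genes were measured in the same libraries. Of 17 hypoxia-responsive genes, 0, 3, 9 and 11 were higher at 6, 12, 24, and 48 h, with a median log2 fold change of 0.05, 0.10, 0.46 and 0.96, and only *BNIP3* at 6 h was lower. *NDRG1* reached 2.87, *VEGFA*, the gene of the angiogenic growth factor, 1.88, and *EPAS1*, which encodes HIF-2α, 1.70 at 48 h, while *HIF1A* did not pass (0.08). At 6 h the value of *BHLHE40* was 0.52 and the median of the list 0.05. Of 14 cAMP and CREB-responsive genes, 5 were higher at each time; *NR4A2*, an orphan receptor gene, was higher at all 4, with log2 fold changes between 2.20 and 2.39, and *FOS* was lower at 6, 12, and 48 h. Of 13 glucocorticoid-responsive genes, 2, 3, 4 and 7 were higher and 0, 1, 2 and 3 lower at 6, 12, 24, and 48 h, in both directions for well-known targets of the receptor: *PDK4* was higher at 48 h (2.16), and *FKBP5* (−1.31) and *SGK1* (−0.92) were lower. *KLF9*, *PPARGC1A*, *DUSP1*, *USP2* and *EPAS1* each stand in 2 of the lists. *PER1*, which responds to both kinds of signal, did not pass at any time. Of 12 E2F and proliferation genes, 0, 0, 11 and 12 were lower at 6, 12, 24, and 48 h, with a median of −1.43 at 48 h. The part of these groups in the members' changes was not tested.

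**Figure D5:**
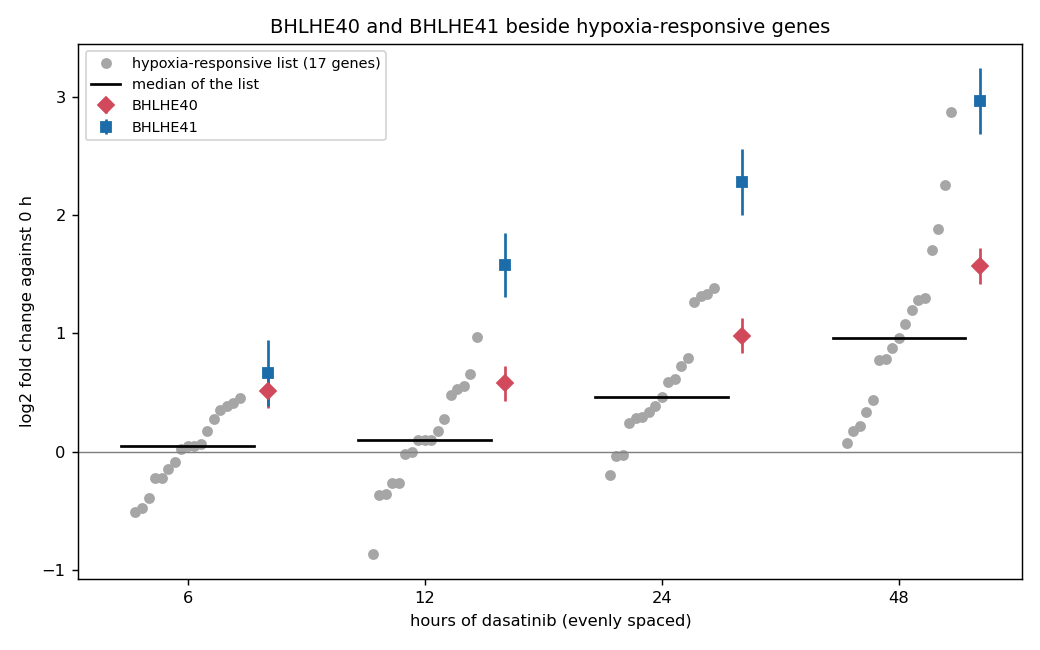
Log2 fold change against 0 h (y axis, edgeR) of the 17 hypoxia-responsive genes (gray points, sorted; the bar is their median) and of *BHLHE40* and *BHLHE41* (± standard error) at 6, 12, 24, and 48 h of dasatinib (x axis, evenly spaced). The median of the list is 0.05 at 6 h and 0.96 at 48 h, and *BHLHE41* is above every gene of the list from 6 to 48 h.

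For each tested member the 2 genes with the most similar course were found among 10974 genes (average log2 CPM 2 or more), by the root mean square difference of the log2 change from the 0 h mean over the 8 treated libraries. *BHLHE40* was nearest to *LTBP3* (0.113) and *MLPH* (0.140), *BHLHE41* to *PWWP3B* (0.333) and *PBXIP1* (0.341), and *NR1D1* to *KCNN4* (0.166) and *SEMA3B* (0.172). *TEF* was nearest to *TBL1X* (0.150) and *DGKQ* (0.169), *PER3* to *PCCA* (0.290) and *SNX29* (0.304), and *DBP* to *ATOH8* (0.281) and *SIGIRR* (0.300). *PER1* was nearest to *ZNF384* (0.0870) and *MRTFA* (0.0945), *PER2* to *DISP2* (0.0892) and *NFIC* (0.118), and *NR1D2* to *NSF* (0.0564) and *WNK1* (0.0658). The median difference over all genes compared was 1.09 for *BHLHE40*, 2.13 for *BHLHE41* and 0.496 for *NR1D2*. Members were left out of the genes ranked, and 12 h replicate 1 is among the 8 libraries.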

How the data were processed

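RNA from 10 MDA-MB-231 libraries (5 groups of 2 biological replicates) was sequenced on the NovaSeq platform as paired-end reads. Per the labels, Trim Galore served for trimming, STAR 2.5.2b for alignment to hg38, and featureCounts for counting. The authors deposited tables of raw counts and of TPM (36687 symbols); the annotation, the strand setting and the step from counts to TPM are not given in the sources used here.

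Raw counts were tested in R 4.3.3 with edgeR 4.0.16: filter on low counts by group, TMM, a mean per group over all 10 libraries, robust quasi-likelihood test, Benjamini-Hochberg adjustment over 15727 genes, threshold 0.05. With 2 libraries per group, p-values rest on the spread pooled over the groups. A standard error is the log2 fold change divided by the square root of F. Alternatives were no filter, DESeq2-type scaling in edgeR, tests in DESeq2 1.42.0, the 2 groups alone, the replicate block, limma 3.58.1 on log2(TPM + 1) or log2(TPM + 0.1) with 1 TPM in 2 libraries or no filter, and each library left out. A group left with 1 library was assumed to vary like the others. The test was checked on simulated data for 48 h against 0 h. There edgeR called 5% of the 40 genes with a true 1.5-fold change. It called 59.2% of the 76 with a 2-fold and 81% of the 80 with a 4-fold change, and 7 unchanged genes. Far fewer genes were changed there than the 5077 called at 48 h in the data, which makes the adjustment stricter. The rates therefore do not give the power of the test on the data. A member that did not pass may still have changed. The members and gene lists were chosen with earlier results of these data known. Named were all members, up to 3 genes per list that rose and 3 that fell, ranked by adjusted p at 48 h, genes overlapping a member, and the 2 nearest genes; other list members are named after their values were seen. Coordinates come from GENCODE release 44 (GRCh38) and promoters from RefSeq (GRCh38.p14), matched by symbol for 10 of 10 members; the authors' annotation may differ. 1 listed gene is not reported here.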

Additional observations from a re-analysis of the deposited data

Results flagged for a closer look

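For 6 results the difference between 2 times of treatment itself passed the test (edgeR, adjusted over all genes), which means that the change against 0 h was not the same at both times. At 24 h against 6 h these were *BHLHE41* (log2 fold change 1.61, adjusted p = 0.00258) and *PER3* (1.22, adjusted p = 0.00860). At 48 h against 6 h they were *BHLHE41* (2.29, adjusted p = 0.000150), *BHLHE40* (1.05, adjusted p = 0.000447), *PER3* (1.67, adjusted p = 0.000769) and *NR1D1* (0.74, adjusted p = 0.0213). In all 6 both libraries of the later time were above both 6 h libraries. *PER3* had its lowest values of the course at 6 h. *NR1D1* at 48 h against 6 h was called in 6 of 10 fits with a library left out and in 9 of 9 other alternatives, and *PER3* at 24 h against 6 h in 7 of 10 and 9 of 9.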

How the results depend on the processing

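No log2 fold change of a called member changed direction in any of the 19 alternatives. The number of members called at 48 h against 0 h was 5 in all 9 alternatives that kept every library, as at 24 h against 0 h. Elsewhere it moved. At 6 h against 0 h (0 called) it was 1 with no filter, 1 with DESeq2 on all libraries, and, with only those 2 groups fitted, 2 by edgeR and 1 by DESeq2. At 12 h against 0 h (5 called) it was 6 with no filter (*PER1* added), 0 by edgeR and 1 by DESeq2 when only those 2 groups were fitted, and 3, 3 and 2 with limma on log2(TPM + 1), log2(TPM + 0.1) and log2(TPM + 1) without a filter. At 24 h against 6 h (2 called) it was 5 with no filter and with edgeR or DESeq2 on the 2 groups alone, and 4 with DESeq2 on all libraries and with limma on either log2(TPM + 1) or log2(TPM + 0.1). At 48 h against 24 h (0 called) it was 2 with no filter, 1 with DESeq2 on all libraries and 3 with edgeR or DESeq2 on the 2 groups alone.

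With each library left out in turn, against 0 h the members called numbered 0 to 3 (6 h), 0 to 8 (12 h), 2 to 5 (24 h) and 3 to 5 (48 h). Against 6 h they numbered 1 to 5 (24 h) and 3 to 6 (48 h), and for 48 h against 24 h 0 to 3. Without either 12 h library 3 were called at 6 h (*BHLHE40*, *BHLHE41* and *TEF*), and without either 0 h library 0 were called at 12 h. Not every call in these fits was higher. *NR1D1* at 12 h was called lower without 12 h replicate 2 (log2 fold change −0.54), and its value was 0.10 without 12 h replicate 1. The calls over all genes differed widely between these fits as well (ranges below). The counts of members called in them are therefore no result about the members alone. Without 0 h replicate 2, 2 were called at 24 h and 3 at 48 h, and without 24 h replicate 1, 2 at 24 h; without 0 h replicate 1 or 24 h replicate 2, 3 at 24 h. At 12 h 2 were called without any one of the 6, 24, or 48 h libraries. Without either 12 h library more members were called in each comparison between times. The genes called over all genes moved too: 430 at 6 h (59 to 3205 with a library left out, 176 to 2966 otherwise), 1124 at 12 h (169 to 7559, 0 to 2336), 3143 at 24 h (1216 to 6665, 2200 to 6485) and 5077 at 48 h (2913 to 8364, 4044 to 8158). Between times the calls over all genes moved as well, also with a library left out. With every library kept they were 2933 at 24 h against 6 h (2038 to 6885 over the alternatives). They were 5221 at 48 h against 6 h (4187 to 8416) and 500 at 48 h against 24 h (227 to 3805). The cause was not tested.

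With the replicate number as a block the members called were 5, 5 and 5 at 12, 24, and 48 h and 0 at 6 h against 0 h, 3 and 4 at 24 and 48 h against 6 h, and 0 at 48 h against 24 h. Deviations of same-numbered libraries correlated between −0.036 and 0.080 over the 10 pairs of groups, so no shared effect of the replicate number was seen. Whether same-numbered samples were prepared together cannot be read from these values. Depth limits *CIART*, *PER3*, *PER2*, *DBP*, *TEF* and *BHLHE41*, which had at most 14, 258, 409, 432, 682 and 696 counts in a library.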
